A study of Danio rerio with 4 samples.

Results

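The genes described here mark the spermatogonial stem cell or carry the GDNF signal to it: pou5f3, nanos2, gfra1a, gfra1b, gfra2a, ret, zbtb16a, sall4, lin28a and id4. They were chosen by name, as the probes whose transcript identifier belongs to one of these 10 zebrafish genes. Of the 10 genes, 9 had a probe, with 20 probes in all among the 43532 probes of the array that were used. No probe carried the name of nanos2, which is not analysed here, and lin28a is found under its current name lin28ab. A total of 8 genes with 18 probes stood well enough above background to be tested, out of 24325 genes with 37420 probes. The gene that had a probe and was not tested is gfra1b.

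Spermatogonial stem cells divide to renew themselves and to supply the cells that enter spermatogenesis. In the mouse, Sertoli cells secrete GDNF, which binds the coreceptor GFRA1 on the stem cell, and the pair activates the receptor tyrosine kinase RET. Related ligands pair with other coreceptors, such as neurturin with GFRA2, and the same receptors serve nerve cells. Mouse stem cells also depend on or express the transcription factors ZBTB16, SALL4 and ID4 and the RNA-binding protein LIN28A. The zebrafish gene pou5f3 is related to the mammalian pluripotency gene Oct4.

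RNA came from testes of 4-month-old zebrafish held for 6 weeks at 20 µg/L of MCLR (microcystin-LR, made by cyanobacteria and known to block protein phosphatases) or at 0 µg/L (control). Each group had 2 arrays, labelled with Cy3 and read in 1 colour. The design text gives 2 independent experiments, both groups in each, without tying the replicate numbers to them. No strain or genotype is given, nor whether a sample was 1 fish or a pool, so the p-values measure the spread between these samples, which may be technical. The barcode in the file headers began with 1 on all 4 arrays, and whether this names a shared slide was not established. The number after it, read here as the position, was 1 and 2 for MCLR and 3 and 4 for control. Group and position therefore cannot be told apart. Levels below are log2 processed signals relative to the 75th percentile of the array, so that 0 is the 75th percentile; levels of different probes are not compared. That percentile was 301.0 and 397.8 intensity units on the MCLR arrays and 393.3 and 310.3 on the control arrays. Between 86.4% and 88.2% of spots stood well above background on the MCLR arrays, against 81.9% to 84.7% on the control arrays. Of the tested testis markers, all 5 germ line, all 5 Sertoli cell, all 4 Leydig cell and all 5 spermatocyte markers stood well above background on every array. So did all 8 tested pancreas, 7 oocyte and 5 blood markers, so this mark does not by itself establish testis identity. Since a testis holds many cell types, fewer cells of a type and less RNA per cell cannot be told apart in these values.

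The comparison of MCLR with control asks whether the toxin changed the stem cell genes. On the brightest probe of each gene, the 2 largest differences were those of pou5f3 and gfra2a, both with about doubled signal in MCLR. The GDNF coreceptor gene gfra1a had nearly the same level in both groups. Among all tested probes of these genes, a dim one of ret had a larger log2 fold change, 1.12. With limma, adjusted over all 24325 genes, 0 of the 8 tested genes passed the threshold of 0.05, their adjusted p lying between 0.309 and 0.999. Over all genes that threshold was passed by 0%. At an unadjusted p under 0.05, 2 of the 8 were called, where 9.2% of all genes were. Both were higher in MCLR, a direction in which 8.67% of all genes were called, against 0.53% called lower. The log2 fold change was above 0 in 6 of the 8 genes, where 61.4% of all genes were above 0. The median of the 8 was 0.29 and that of all genes 0.08. Both arrays of one group lay beyond both of the other in 3 of the 8 genes, as they did in 34.3% of all genes. MCLR was the higher group in 2 of these 3 (25.3% of all genes) and the lower in 1 (9.08% of all genes). The 95% interval reached a 2-fold difference in 7 of the 8 genes, all but gfra1a.

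**Figure D1:**
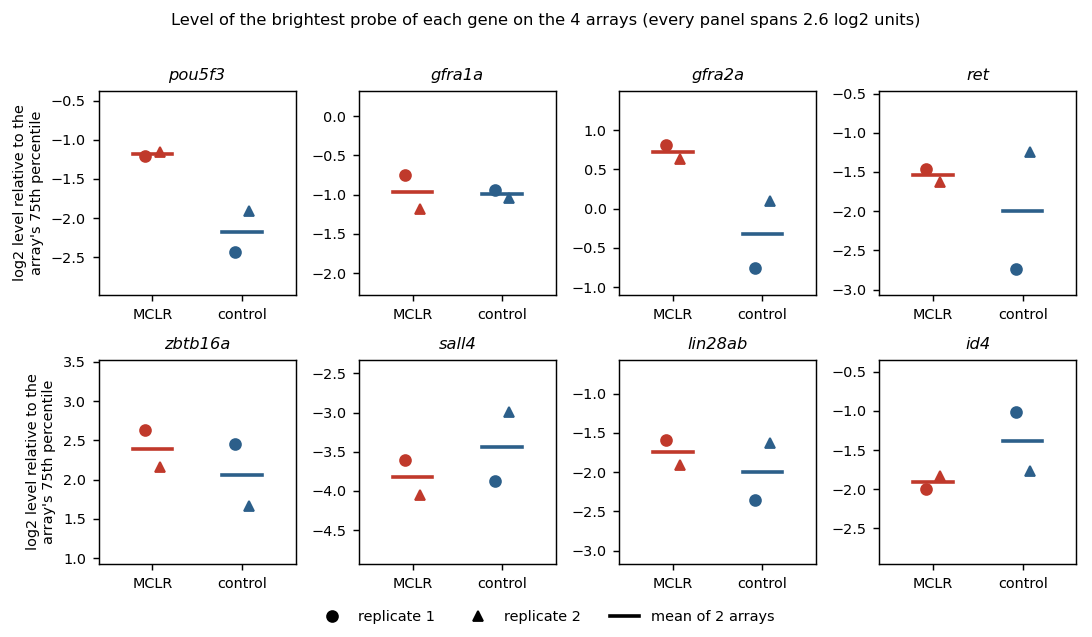
Log2 level of the brightest probe of each of the 8 tested genes relative to the 75th percentile of the array, on the MCLR and control arrays; circles are replicate 1, triangles replicate 2, bars the means of 2 arrays. The MCLR points lie above both control points for pou5f3 and gfra2a and below both for id4, and the control points of ret are 1.49 log2 units apart.

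The level of pou5f3 was -1.21 and -1.16 on the MCLR arrays, against -2.44 and -1.91 on the control arrays. The MCLR arrays were close to each other and both higher than the controls. Its log2 fold change was 0.99 ± 0.28 (SE, 2 arrays per group), or 1.99-fold, with a 95% interval from 1.23-fold to 3.22-fold and an adjusted p of 0.309 by limma. Among the 4404 probes of similar level (mean level between -2 and -1), the median log2 fold change was 0.07 and the 95th percentile 0.54, so that pou5f3 stood above at least 95% of them. Quantile normalization alone gave 0.95, and a normexp background correction (offset 50) followed by quantile normalization, below called the combined processing, gave 0.66. The other probe of pou5f3 was dim, with signals of 10.5 and 3.79 in MCLR and 1.50 and 2.01 in control. It stood well above background on MCLR replicate 1 and on none of the other 3 arrays, so no fold is given for it.

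The 3 named genes whose levels followed those of pou5f3 most closely over the 4 arrays were guca1g, epha4a and nmt1b. Likeness was the root mean square difference of the centred levels, taken over 11614 named genes, and was 0.04 for guca1g, 0.06 for epha4a and 0.06 for nmt1b. With 4 arrays such a likeness describes these samples only. The level of epha4a, an ephrin receptor, was 0.74 and 0.82 in MCLR, against -0.47 and 0.19 in control.

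Among the coreceptors, gfra2a was measured by 1 probe, and no second probe checks it. Its level was 0.81 and 0.64 in MCLR, against -0.75 and 0.10 in control. The groups did not overlap, and control replicate 1 was the lowest array. The log2 fold change was 1.05 ± 0.35, or 2.07-fold, with a 95% interval from 1.14-fold to 3.79-fold (limma adjusted p = 0.409). Quantile normalization alone gave 1.07 and the combined processing 0.92. Of the 3362 probes with a mean level between 0 and 1, 1.40% had an unadjusted p under 0.05, and their 95th percentile of log2 fold change was 0.44.

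The values of pou5f3 and gfra2a rested in part on control replicate 1. Without that array the log2 fold change was 0.73 for pou5f3 and 0.63 for gfra2a, against 1.25 for pou5f3 and 1.48 for gfra2a when control replicate 2 was left out. With any 1 array left out, neither passed the adjusted threshold. The unadjusted p under 0.05 was kept only without control replicate 2, when ret and id4 were called too, 4 of the 8 genes in all; without any of the other 3 arrays 0 of 8 were called.

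For gfra1a, the coreceptor of GDNF itself, the level was -0.75 and -1.19 in MCLR, against -0.94 and -1.04 in control. Both control values lay between the MCLR values. The log2 fold change was 0.03 ± 0.27, with a 95% interval from 0.64-fold to 1.62-fold, and it was -0.071 when arrays were scaled to their medians. A second, dim probe of gfra1a gave 0.30 ± 0.33 (-0.06 after quantile normalization alone), with -3.81 and -4.24 in MCLR and -4.63 and -4.02 in control. The 1 probe of the paralog gfra1b had signals of 2.04 and 1.97 in MCLR and 1.63 and 16.3 in control. It stood well above background on control replicate 2 and on none of the other 3 arrays, and no fold is given. On that same array 8 of 8 pancreas markers were highest, with a summed signal of 119.9 times the 75th percentile, against 6.58 and 8.04 on the MCLR arrays and 10.3 on control replicate 1; the part of pancreas tissue in the gfra1b signal was not tested.

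The receptor gene ret gave 2 probes that disagreed. On the brighter one the level was -1.46 and -1.62 in MCLR, against -2.74 and -1.25 in control. The control arrays were farther apart from each other than the groups were, and the log2 fold change of 0.45 ± 0.51 had a 95% interval from 0.57-fold to 3.29-fold. It was -0.30 when control replicate 1 was left out and 1.20 when control replicate 2 was. The dimmer probe had -4.40 and -4.72 in MCLR, against -5.72 and -5.65 in control, and stood well above background on 1 of the 2 control arrays. Its log2 fold change was 1.12 ± 0.26, with an adjusted p of 0.216 in a limma fit of every probe on its own. It was 0.49 after quantile normalization alone and 0.08 after the combined processing. Of the 2397 probes with a mean level below -5, 88.2% were higher in MCLR and the median log2 fold change was 1.09. The dim ret probe was thus near the middle of probes of its level. It was tested only because both MCLR arrays stood well above background, and other probes this dim can enter through 1 group alone. The part of this filter in these values was not tested.

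Nerve tissue also uses ret, and its markers differed between the arrays. The summed signal of 11 tested nerve and glia markers was 7.25 and 2.95 times the 75th percentile on the MCLR arrays, against 41.7 and 3.93 on the control arrays. Control replicate 1, the array with the largest nerve sum, was the one with the lowest ret level on the brighter probe. Of the 11 markers, 7 were highest on that array, 3 on MCLR replicate 1 (gfap, phox2bb and sox10) and 1 on control replicate 2. The synaptic gene snap25a had levels of 1.17 and -1.81 in MCLR and 4.26 and -1.42 in control, and the myelin gene mpz had -0.49 and -0.91 in MCLR and 2.99 and -0.86 in control. The glial genes sox10 and gfap were named after their values were seen. The level of sox10 was -1.04 and -2.31 in MCLR and -2.08 and -1.79 in control. For gfap it was -2.14 and -4.60 in MCLR and -5.73 and -6.18 in control. The part of nerve tissue in the stem cell gene values was not tested.

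**Figure D2:**
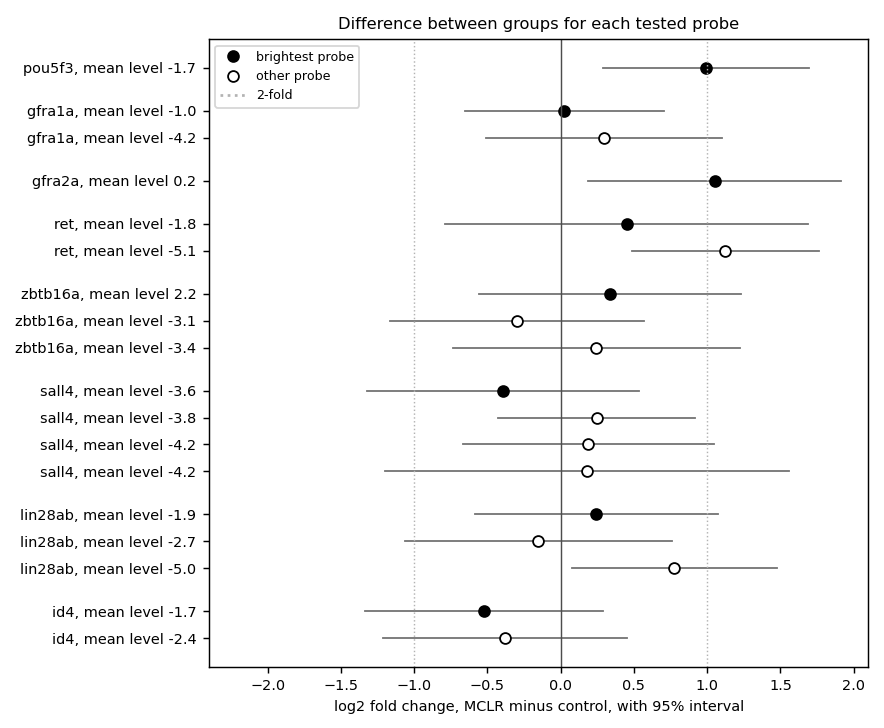
Log2 fold change (MCLR minus control) of each of the 18 tested probes with its 95% interval from a limma fit of every probe on its own; filled circles are the brightest probe of a gene, open circles the others, dotted lines 2-fold. The intervals of 4 probes, those of pou5f3, gfra2a and the dimmest of ret and lin28ab, lie above 0.

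Among the transcription factors, zbtb16a (the zebrafish counterpart of mouse PLZF) had 2.63 and 2.16 in MCLR, against 2.45 and 1.66 in control. The groups overlapped, and the log2 fold change was 0.34 ± 0.36. Its 2 other probes gave 0.24 and -0.30. On all 3 probes control replicate 1 was above control replicate 2. Leaving out control replicate 1 gave 0.74 on the brightest probe, and leaving out control replicate 2 gave -0.060.

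For sall4, a zinc finger factor of germ and embryonic stem cells in the mouse, the brightest of 4 probes had -3.61 and -4.05 in MCLR, against -3.88 and -2.99 in control. Control replicate 2 stood alone above the other arrays, and the log2 fold change was -0.39 ± 0.38. The other 3 probes gave 0.25, 0.19 and 0.18, so the sign depended on the probe. It also depended on the normalization: after quantile normalization alone the brightest probe gave -0.65 and the other 3 gave -0.040, -0.18 and -0.21. The mean of the probes was 0.055 without it.

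The inhibitor of DNA binding gene id4, a marker of the stem cell in the mouse, was the other gene with a negative value. Its level was -2.0 and -1.83 in MCLR, against -1.02 and -1.76 in control. The groups did not overlap, but MCLR replicate 2 and control replicate 2 differed by little. The log2 fold change was -0.52 ± 0.32, or 1.44-fold lower in MCLR, with a 95% interval of MCLR over control from 0.40-fold to 1.22-fold. A second probe gave -0.38 ± 0.34, with -2.55 and -2.56 in MCLR and -1.77 and -2.58 in control, and there the groups overlapped. On both probes control replicate 1 stood alone above the other arrays. On that array 7 of 11 nerve and glia markers were highest, but the brighter ret probe was lowest. Of the 11 markers, 3 were highest on MCLR replicate 1. The part of nerve tissue in the id4 values was not tested. On the brighter probe, leaving out control replicate 1 gave -0.15 and leaving out control replicate 2 gave -0.89.

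The RNA-binding protein gene lin28ab had -1.59 and -1.90 in MCLR, against -2.36 and -1.62 in control, on its brightest probe. The groups overlapped, with a log2 fold change of 0.24 ± 0.33. A second probe gave -0.15, with -2.75 and -2.87 in MCLR and -3.13 and -2.18 in control. The dimmest probe gave 0.78 ± 0.28, with -4.45 and -4.72 in MCLR and -5.57 and -5.15 in control (adjusted p = 0.473, every probe fitted on its own with limma), 0.19 after quantile normalization alone and 0.02 after the combined processing. On all 3 probes control replicate 2 was above control replicate 1.

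**Figure D3:**
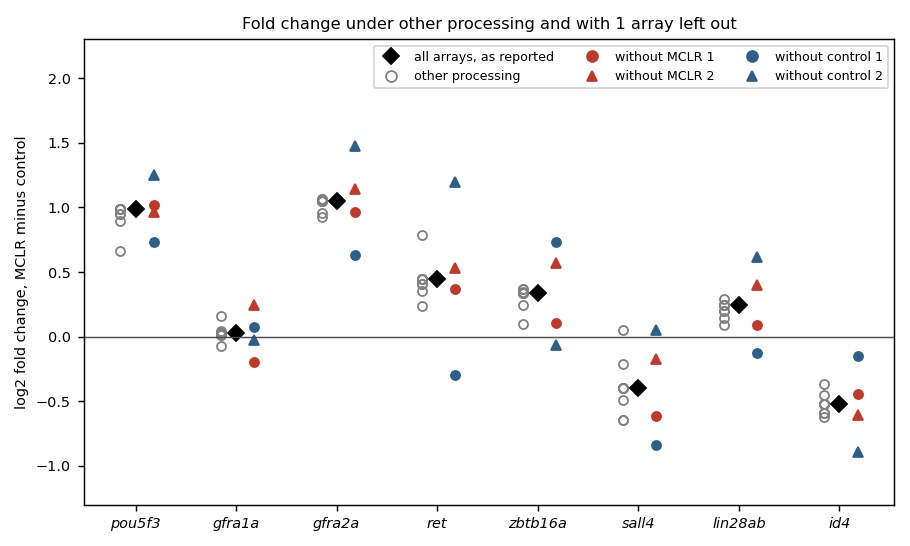
Log2 fold change (MCLR minus control) of the 8 tested genes as reported (diamonds), under other processing of all 4 arrays (open circles) and with 1 array left out (filled symbols). The values of pou5f3, gfra2a and id4 keep their sign in every case, and those of ret run from -0.30 without control replicate 1 to 1.20 without control replicate 2.

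In 6 of the 8 genes the 2 control arrays were farther apart than the group means were, and in 7 of 8 the control arrays were farther apart than the MCLR arrays, which was so for 54.0% of all genes. Of the 6 genes with several tested probes, 3 had probes of both signs, namely zbtb16a, sall4 and lin28ab. Of the 18 probes, 13 had a positive log2 fold change, against 63.5% of all tested probes. An unadjusted p under 0.05 was reached by 4 of the 18 probes, each of a different gene, against 9.03% of all tested probes. All 4 were higher in MCLR (8.51% of all tested probes) and 0 were lower (0.518%). The groups did not overlap in 5 of the 18 probes, 4 of them higher in MCLR and 1 lower, against 34.5%, 26.3% and 8.16% of all tested probes. Calls were more frequent among dim probes of the whole array, which can be tested through the arrays of 1 group alone. The share at an unadjusted p under 0.05 was 60.1% for probes with a mean level below -5, 22.4% between -5 and -4, 7.29% between -4 and -3 and 2.55% or less in every brighter range. The median log2 fold change of all probes was 0.43 between -5 and -4 and 0.21 between -4 and -3. After quantile normalization alone it was 0.40 below -5, -0.01 between -5 and -4 and at most 0.03 in the brighter ranges. After the combined processing it was 0.05 below -5 and at most 0.02 in the other ranges.

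**Figure D4:**
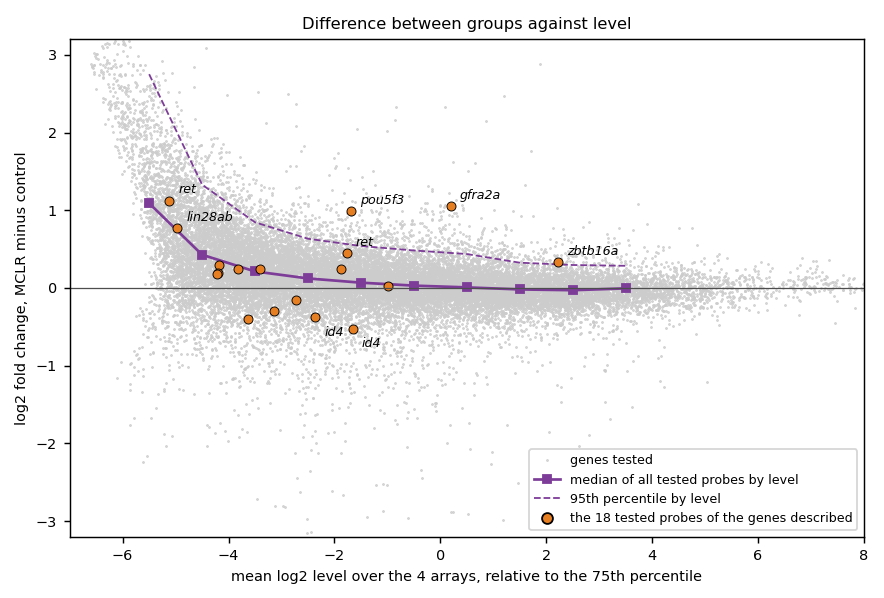
Log2 fold change (MCLR minus control) against the mean log2 level over the 4 arrays. Grey dots are all tested genes (40 lie outside the axes), orange circles the 18 tested probes of the genes described, and purple lines the median and the 95th percentile of all tested probes by level; pou5f3 and gfra2a lie above the 95th percentile of their level, zbtb16a lies just above it, the dim probe of ret lies near the median of its level, and that of lin28ab between the median and the 95th percentile.

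The ligand and the other receptors of the GDNF family gave 5 tested genes of 13 listed, 3 positive and 2 negative, where 61.4% of all genes were positive. On their brightest probes 0 had an unadjusted p under 0.05 with limma, where 9.2% of all genes did. Second, dim probes of gdnfa and gfra4a did when every probe was fitted on its own. Both had a mean level below -5, where 60.1% of all tested probes had such a p. Each was tested only because both MCLR arrays stood well above background. Of the ligands, gdnfa had a probe; gdnfb, nrtn, pspn and the artemin genes had none that matched. The level of gdnfa was -0.76 and -0.87 in MCLR, against -1.14 and -0.60 in control. The MCLR values lay between the control values, with a log2 fold change of 0.05 ± 0.28. A dim second probe of gdnfa stood well above background on both MCLR arrays and on neither control array and was at least 2.16-fold higher in MCLR (adjusted p = 0.116, every probe fitted on its own with limma), with -4.66 and -4.59 in MCLR and -6.08 and -6.36 in control. That probe gave 0.86 after quantile normalization alone and 0.14 after the combined processing. With the mean of its probes gdnfa gave 0.83 (limma adjusted p = 0.258). That mean includes the dim probe and so rests in part on control signals that were not well above background.

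The coreceptor gene gfra3 had -3.36 and -3.25 in MCLR, against -3.11 and -3.09 in control, a log2 fold change of -0.20 ± 0.23. For gfra4a the values were -2.64 and -3.70 in MCLR, against -1.83 and -3.46 in control, and the log2 fold change was -0.53 ± 0.63. In both groups of gfra4a replicate 1 was the higher array, by more than the groups differed. A dim second probe of gfra4a, well above background on 1 of the 2 control arrays, gave 1.18, 0.55 after quantile normalization alone and 0.11 after the combined processing. The cell adhesion genes ncam1a and ncam1b, related to an alternative GDNF receptor of mammals, gave 0.07 ± 0.29 and 0.37 ± 0.25.

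Of the genes that pass the RET signal on or answer to it, 17 of 24 listed were tested, 6 positive and 11 negative, with a median of -0.04. With limma 0 had an unadjusted p under 0.05. Over all genes 61.4% were positive and 9.2% had such a p. The transcription factor gene etv5a, whose mouse counterpart answers to GDNF, had 0.94 and 1.22 in MCLR, against 2.91 and 1.13 in control. Control replicate 1 stood alone above the other arrays, and the log2 fold change was -0.94 ± 0.59. Of its other 4 probes, 3 gave -0.85, -1.02 and -1.17, and a dim one gave 1.33, or -0.01 after the combined processing. Control replicate 1 was again highest on all 4. On control replicate 2 the dim probe was not well above background, with a signal of 1.40. The median negative control signal of that array was also 1.40. Without control replicate 1 the value of the brightest probe was -0.05. The phosphatase gene ptpn11b gave -0.46 ± 0.27, the adaptor gene frs2a 0.28 ± 0.26 and the homeobox gene lhx1b -0.26 ± 0.25.

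In other genes of undifferentiated germ cells and self-renewal, 19 of 26 listed were tested, 10 positive and 9 negative, with a median of 0.10. Over all genes 61.4% were positive. An unadjusted p under 0.05 by limma was reached by 2 of the 19, klf4 and foxo1b, both dim, against 9.2% of all genes. Among all tested probes with a mean level between -5 and -4, as theirs was, the share was 22.4%. For klf4, a pluripotency factor in the mouse, the brightest probe had -3.41 and -3.80 in MCLR, against -4.67 and -4.73 in control (log2 fold change 1.09 ± 0.26, limma adjusted p = 0.225). A second klf4 probe, well above background on all 4 arrays, gave 0.43, and 0.05 after quantile normalization alone. The forkhead gene foxo1b had -3.35 and -3.83 in MCLR, against -4.59 and -4.76 in control (1.09 ± 0.28, adjusted p = 0.257). Quantile normalization alone gave 0.75 for both, and the combined processing 0.20 for klf4 and 0.21 for foxo1b; in the combined processing neither kept its unadjusted call, nor did foxo1b without MCLR replicate 1. The inhibitor of DNA binding gene id1, brighter, had 2.08 and 2.16 in MCLR and 1.66 and 1.39 in control, with a log2 fold change of 0.60 ± 0.25 and 0.58 after the combined processing (limma adjusted p = 0.561). Its second probe gave 0.27. The germ cell gene dnd1, needed for germ cell survival in zebrafish, gave 0.45 ± 0.29, which was 0.75 without MCLR replicate 1 and 0.16 without MCLR replicate 2.

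The list for differentiating spermatogonia also held the Kit ligand genes kitlga and kitlgb, and dmrt1, which also served as a Sertoli cell marker. It thus does not stand for spermatogonia alone. Of its genes, 13 of 14 listed were tested, 10 positive and 3 negative, with a median of 0.34. Over all genes 61.4% were positive. An unadjusted p under 0.05 by limma was reached by 1 of the 13, kitlgb, against 9.2% of all genes. Among all tested probes with a mean level below -5, where kitlgb lay, the share was 60.1%. The Kit ligand gene kitlgb was not well above background on either control array and was at least 1.98-fold higher in MCLR (limma adjusted p = 0.217), with -4.36 and -5.14 in MCLR and -6.16 and -6.22 in control. Its log2 fold change was 0.68 after quantile normalization alone and 0.12 after the combined processing, and its unadjusted call was lost in both. It was not tested where all 4 arrays had to be well above background. The Kit receptor gene kita had -3.61 and -3.78 in MCLR, against -4.37 and -3.93 in control (0.46 ± 0.27, 0.16 after quantile normalization alone and 0.06 after the combined processing). The retinoic acid receptor gene rarga gave 0.58 ± 0.25 (0.44 after quantile normalization alone and 0.19 after the combined processing). For cyp26a1, which breaks down retinoic acid, the brighter values were 2.59 and 2.75 in MCLR and 2.08 and 2.41 in control, with a log2 fold change of 0.43 ± 0.25 that was 0.45 after the combined processing.

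Signals of the niche gave 21 tested genes of 24 listed, 10 positive and 11 negative, with a median of -0.03. Over all genes 61.4% were positive. An unadjusted p under 0.05 by limma was reached by 3 of the 21, wnt5b, wnt5a and fgf2, all dim, against 9.2% of all genes. Among all tested probes the share was 60.1% at a mean level below -5, where wnt5b lay. It was 22.4% between -5 and -4, where wnt5a and fgf2 lay. The secreted factor gene wnt5b had -4.96 and -5.21 in MCLR, against -7.83 and -7.81 in control. It was not well above background on either control array. With the 75th percentile scaling it was at least 1.57-fold higher in MCLR (limma adjusted p = 0.0563). With arrays scaled to their medians it passed the adjusted threshold (limma adjusted p = 0.0119). Its limma adjusted p was 0.311 after quantile normalization and 0.877 in the authors' deposited values. On the control arrays its signals were 1.72 and 1.38, and the median negative control signals 1.50 and 1.40. Its p-values thus rest on a control spread at background, and it was not tested where all 4 arrays had to be well above background. A second wnt5b probe was not well above background on any array and was not tested. Without control replicate 1 the log2 fold change of the tested wnt5b probe was 2.73, and without control replicate 2 it was 2.75. Its paralog wnt5a had -3.60 and -3.41 in MCLR, against -4.94 and -4.15 in control (1.04 ± 0.34), and fgf2, for a growth factor that supports mouse stem cells in culture, had -3.91 and -3.83 in MCLR, against -4.43 and -4.54 in control (0.61 ± 0.23). The unadjusted call of fgf2 was kept when probes had to be well above background on all 4 arrays or were each fitted on their own, and was lost under the other alternatives run, its value being 0.25 after quantile normalization alone. That of wnt5a was lost after quantile normalization (0.70), in the deposited values, in the combined processing and without any 1 array other than control replicate 2. The macrophage growth factor gene csf1b gave 0.70 ± 0.40, which was 0.21 without control replicate 1, 1.18 without control replicate 2 and 0.22 after quantile normalization alone. The combined processing gave 0.17 for wnt5b, 0.20 for wnt5a, 0.11 for fgf2 and 0.05 for csf1b. With all 4 arrays scaled to the 75th percentile, 0 genes of the 5 related lists passed the adjusted threshold of limma, as 0% of all genes did.

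**Figure D5:**
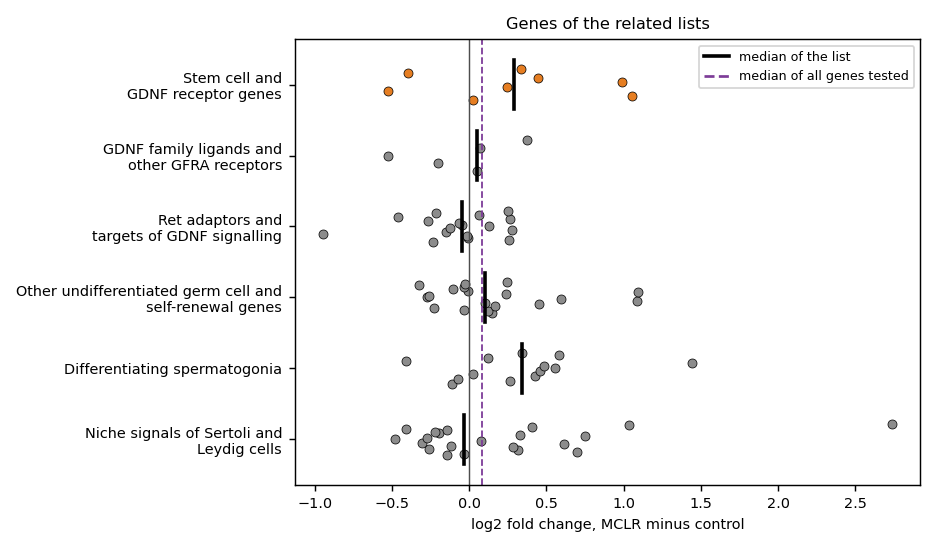
Log2 fold change (MCLR minus control) of the brightest probe of each tested gene in the stem cell and GDNF receptor set (orange) and in 5 related lists (grey); black bars are list medians and the dashed line the median of all tested genes, 0.08. The list medians run from -0.04 for RET adaptors and targets to 0.34 for the list of differentiating spermatogonia, which includes Kit ligand genes.

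Sums over germ cell markers overlapped between the groups. The summed signal of the 5 germ line markers was 82.0 and 75.9 times the 75th percentile in MCLR, against 77.6 and 91.8 in control, and their median log2 fold change was -0.03. Spermatocyte markers summed to 163.7 and 168.1 in MCLR, against 161.4 and 181.3 in control. Sertoli cell markers summed to 84.6 and 77.4 in MCLR, against 54.3 and 80.7 in control. The low sum on control replicate 1 came mostly from gsdf, whose level was 6.27 and 6.16 in MCLR, against 5.56 and 6.21 in control. Of the 5 Sertoli cell markers, 2 were highest on control replicate 1. Leydig cell markers summed to 41.1 and 54.9 in MCLR, against 41.1 and 66.1 in control, and blood markers to 8.16 and 11.1 in MCLR, against 10.6 and 20.6 in control. Oocyte markers summed to 11.8 and 15.7 in MCLR, against 12.3 and 15.1 in control. All 7 tested oocyte markers were well above background on every array.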

How the data were processed

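Per the file headers, the authors scanned 1-colour arrays with Agilent Feature Extraction 11.0.1.1, whose processed signal is an intensity on a linear scale, after background subtraction and spatial detrending; marks of 0 or 1 per spot (other values in the deposited files) give whether it stood well above background. The value table the authors deposited is on a log2 scale, and its median was 5.90 on every array; how it was made is not given in the sources used here, and it served as an alternative. It correlated with the log2 processed signal at 0.992 to 0.995 across probes.

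The mean of a probe's spots was taken, without the 71 probes that carried outlier marks. RefSeq transcript identifiers were named through the gene table of assembly GRCz12tu, which matched 25978 probes (59.6%) and 13373 genes; the array was designed on another build, and its coordinates are not used. A probe was tested if both arrays of MCLR or both of control stood well above background, and the brightest probe by mean level stood for a gene. The difference MCLR minus control was fitted with limma 3.58.1 under R 4.3.3 (group only, eBayes, two-sided, Benjamini-Hochberg over all genes), with 2 residual and 3.52 prior degrees of freedom. A fold is "at least" where a group was not well above background on either array: the bright group's mean was set against, per array, the higher of the dim probe's signal and the lowest signal well above background. For such probes the p-value rests on dim-group signals that were not well above background. The fit was tested on simulated data. The combined processing was normexp with an offset of 50 on the median spot and background intensity, then quantile normalization; quantile normalization of the processed signal alone was a separate alternative. Python 3.11.15 with pandas 2.3.3 and matplotlib 3.10.9 read the files and drew the plots.

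The genes and lists were chosen with earlier results of these data known. Named were the 10 genes, the tested GDNF ligand and receptor genes, in each other list the 4 genes with the smallest p, and the 3 genes most like the member with the smallest p. The alternatives are given in the closing section.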

Additional observations from a re-analysis of the deposited data

How the results depend on the processing

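Across other scalings, background correction, filters, probe rules, priors and left-out arrays, 101 of 114 values of the 8 tested genes kept their direction. The replicate block, the trended and robust prior and the changed filters on dim probes left these fold changes as they were. Directions kept in those settings therefore add nothing to the count. The deposited values gave nearly the fold changes of quantile normalization for the 8 genes, so those directions add little beyond it. With all 4 arrays, 0 of the 8 genes passed the adjusted threshold of limma. Of the other named genes, wnt5b passed that threshold with all 4 arrays under median scaling (limma adjusted p = 0.0119), with control signals at background. The count at an unadjusted p under 0.05 stayed at 2 with all 4 arrays, except for 4 genes when every probe was fitted on its own; with the replicate number as a replicate block it was also 2, with the same 2 genes. Of the other named genes, the block ended the unadjusted call of fgf2 (limma adjusted p = 0.542 with the block, 0.511 without) and of no other. The labels do not say that a number marks a shared experiment, and the replicate 1 minus replicate 2 differences of MCLR and control correlated at 0.19 across genes. With 1 array left out the count ran from 0 to 4, and the median of the 8 genes, 0.29 with all arrays, ran from -0.024 without control replicate 1 to 0.46 without MCLR replicate 2. With median scaling gfra1a was -0.071, gdnfa -0.045 and ncam1a -0.025, and the median of all genes was -0.01 in place of 0.08. After normexp with quantile normalization ncam1b was -0.020. Averaging all probes per gene, sall4 was 0.055, gdnfa 0.83, gfra4a 0.33 and lhx1b 0.55. The means of gdnfa and gfra4a each include a dim probe that was tested only through the MCLR arrays. Single other probes turned the sign of zbtb16a (-0.30), sall4 (0.25, 0.19 and 0.18), lin28ab (-0.15), etv5a (1.33), gfra4a (1.18) and lhx1b (1.97). The etv5a and gfra4a probes among these were not well above background on control replicate 2. That lhx1b probe stood well above background on both MCLR arrays and on neither control array. Its 1.97 thus rests on control signals at background, and the probe was at least 1.73-fold higher in MCLR. The combined processing gave 0.10 for it, and the mean of 0.55 for lhx1b includes it. With 1 array left out, values ran from -0.30 to 1.20 for ret, -0.13 to 0.61 for lin28ab, -0.22 to 0.32 for gdnfa, -1.34 to 0.29 for gfra4a, -0.16 to 0.30 for ncam1a, -0.19 to 0.25 for gfra1a, -0.060 to 0.74 for zbtb16a and -0.84 to 0.048 for sall4; without a change of sign, they ran from 0.21 to 1.18 for csf1b, 0.16 to 0.75 for dnd1, 0.24 to 0.67 for kita, 0.26 to 0.59 for cyp26a1, 0.23 to 0.51 for ncam1b, 0.08 to 0.47 for frs2a, 0.64 to 1.43 for wnt5a, -0.66 to -0.26 for ptpn11b and -0.42 to -0.11 for lhx1b; the cause was not tested. No block for the slide could be fitted, because the barcode began with 1 on every array and named no other slide. The number of arrays limits the precision, and signal near background limits the dim probes.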
